A study of Mus musculus with 16 samples.

Results

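The tumor necrosis factor (TNF) family of ligands, their receptors and the TRAF adaptors that carry the receptor signal were followed in mouse islets cultured with IL-1β, with butyrate, with both or with neither. Members were all genes of the count table with a symbol starting with Tnfsf, Tnfrsf or Traf and a digit, together with Tnf, Lta and Ltb, that had at least 10 counts in at least 4 of the 16 libraries. The symbols matched 46 of the 52636 genes in the table and 34 of them had enough counts, whereas 18922 genes of the whole table met the same minimum. The 34 members were 16 receptors, 9 ligands, 7 TRAF adaptors and 2 genes named for binding TRAF3, Traf3ip1 and Traf3ip2. These 2 were counted because their symbols start with Traf and a digit, and 32 members remain without them.

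Islets are the clusters of endocrine cells in the pancreas, mainly insulin-secreting beta cells. They were taken from 12-week-old male wild type mice, of the strain C57BL/6JRj in the sample labels and C57BL/6NRj in the paper, and kept for 10 days in medium with human serum. The 4 groups were islets left unexposed (control), islets exposed to 50 pg/mL of IL-1β, a pro-inflammatory cytokine, islets exposed to 0.2 mM sodium butyrate, a fatty acid that gut bacteria produce, and islets exposed to both. Each group had 4 libraries from independent experiments, each made from a pool of 500 islets of several mice. The replicates therefore stand for pools, not for single animals.

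TNF ligands are mostly membrane proteins that act as trimers, some of them also after being cut from the cell surface. Their receptors fall into those with a death domain, which can start caspase activation, those that bind TRAF proteins and turn on NF-κB and stress kinases, and decoys that bind a ligand without a full signal. TRAF proteins are scaffolds and ubiquitin ligases at these receptors, and TRAF6 does the same work below the receptor of IL-1. In islets the family is known mainly from inflammation, where TNF made by immune cells adds to the action of IL-1β on beta cells.

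Library depth was 18635943 to 25955943 counts, with a median of 22184715. Values are given as CPM, the counts of a gene scaled to a common library size by edgeR, as mean ± SD over the 4 libraries of a group where a spread is given. Differences are log2 fold changes with their standard error (SE) from 1 edgeR model of all 16 libraries, and a gene was called raised or lowered at a Benjamini-Hochberg adjusted p under 0.01 over 18587 genes tested. All 34 members were among the genes tested. The 8 beta cell markers, led by Ins2, had a summed level of 214000 to 237000 CPM in control, 138000 to 179000 with IL-1β, 138000 to 170000 with both and 223000 to 262000 with butyrate. IL-1β lowered 6 of the 8 (6.59% of all genes tested were lowered) and raised 1, Iapp, and all libraries with IL-1β lay below all without it. The part of this lower beta cell sum in the members' changes was not tested. The sums of macrophage markers were far lower and also moved with the groups, with 130 to 144 CPM in control, 187 to 233 with IL-1β, 101 to 140 with both and 86.2 to 107 with butyrate. The sum does not stand for each of the 12 markers. With both against control, the most abundant one, C1qa, was lowered (14.8% of all genes), while 9 were still raised (15.8%). Duct cell markers had 395 to 428, 591 to 683, 599 to 895 and 389 to 439 CPM in the same order, with 4 of 6 raised by IL-1β, as were 11.2% of all genes. In whole islets, fewer cells of a type and less RNA per cell cannot be told apart.

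Upstream sequences of 4 members, and of Ltb, which had too few counts to be one, are printed here because these genes are described below and differ in one sequence feature. RefSeq promoter windows of GRCm38.p6, 250 bases before to 50 after a start site, were at hand for 27 of the 34 members, and not for Traf3ip2, Tnfsf12, Tnfsf9, Tnfrsf10b, Tnfrsf11b, Tnfrsf22 and Tnfrsf26. The NF-κB consensus of 10 bases was searched on both strands, and overlapping matches were counted apart. It was found in 2 of the 27 members (7.41%), Traf3 and Tnfrsf9, against 5.14% of the 27025 genes with a window. Among the symbols with too few counts, Ltb and Tnfrsf8 also held it. The windows of Tnf, Tnfrsf1a, Tnfrsf1b and Tnfsf10 had no match of these letters. The 250 bases before the start are given 5′ to 3′ on the strand of the gene, and capitals mark the consensus.
Traf3, chr12:111166120-111166369, plus strand: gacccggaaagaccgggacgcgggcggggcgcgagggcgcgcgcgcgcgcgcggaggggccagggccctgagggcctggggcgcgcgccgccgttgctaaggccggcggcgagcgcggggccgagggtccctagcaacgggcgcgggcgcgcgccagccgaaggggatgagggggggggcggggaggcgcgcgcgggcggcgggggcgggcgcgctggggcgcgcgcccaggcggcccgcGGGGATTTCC
Tnfrsf9, second start site, chr4:150927749-150927998, plus strand: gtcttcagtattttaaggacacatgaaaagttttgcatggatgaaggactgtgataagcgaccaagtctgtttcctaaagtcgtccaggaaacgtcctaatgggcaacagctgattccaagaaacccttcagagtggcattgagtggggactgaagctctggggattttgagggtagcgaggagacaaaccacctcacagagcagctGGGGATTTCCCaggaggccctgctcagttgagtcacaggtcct
Ltb, chr17:35194257-35194506, plus strand: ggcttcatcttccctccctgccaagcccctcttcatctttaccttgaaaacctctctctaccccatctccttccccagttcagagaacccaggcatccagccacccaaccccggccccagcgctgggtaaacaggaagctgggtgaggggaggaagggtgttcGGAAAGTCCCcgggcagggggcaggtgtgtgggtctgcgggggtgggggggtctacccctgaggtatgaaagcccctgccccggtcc
Tnfrsf1b, chr4:145246871-145247120, minus strand: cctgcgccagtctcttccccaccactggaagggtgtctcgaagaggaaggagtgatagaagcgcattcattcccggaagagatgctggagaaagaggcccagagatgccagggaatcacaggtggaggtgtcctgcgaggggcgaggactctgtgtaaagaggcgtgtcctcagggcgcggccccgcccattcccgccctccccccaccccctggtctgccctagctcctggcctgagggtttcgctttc
Tnfsf10, chr3:27316827-27317076, plus strand: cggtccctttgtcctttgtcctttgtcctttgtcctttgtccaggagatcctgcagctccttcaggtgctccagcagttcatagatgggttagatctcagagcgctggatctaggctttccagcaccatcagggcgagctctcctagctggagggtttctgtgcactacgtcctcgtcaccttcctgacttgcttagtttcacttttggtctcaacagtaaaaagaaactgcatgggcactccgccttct

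In Traf3 the match ended at the base before the start site, in Tnfrsf9 it began 43 bases before the second start and in Ltb 87 bases before the start on the other strand. The Tnfrsf9 window held 2 overlapping matches, and its first start site had none. A second motif, TGANTCA of the AP-1 factors, was found in 3 members (11.1%), Tnfrsf9, Tnfsf13 and Tnfsf13b, against 8.97% of genes.

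Seen over the exon length, the family spanned a wide range in control islets. Levels between genes were compared as CPM per kb of exon. The highest was Tnfrsf21, the death receptor DR6, with 19.5, above 89.0% of the genes tested, followed by Traf3 with 14.5 and Tnfrsf1a with 14.3. Then came Traf7 (9.46), Traf6 (6.73), Tnfrsf12a (5.22), Tnfrsf23 (5.02), Traf3ip2 (4.83), Traf4 (3.99) and Traf2 (3.96). The ligands were lower. Tnfsf12, the ligand TWEAK, had 3.14, Tnfsf10, the ligand TRAIL, had 2.20 and Tnfsf9 had 1.45, whereas the other 6 had 0.156 (Lta) to 0.345 (Tnfsf18). The lowest members were Tnfrsf13b (0.0715), Tnfrsf19 (0.077) and Traf1 (0.0896). With IL-1β the order changed at several places: Tnfrsf1a rose to 26.5 per kb, the highest of all members, and Tnfrsf11b went from 0.586 to 5.94.

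**Figure D1:**
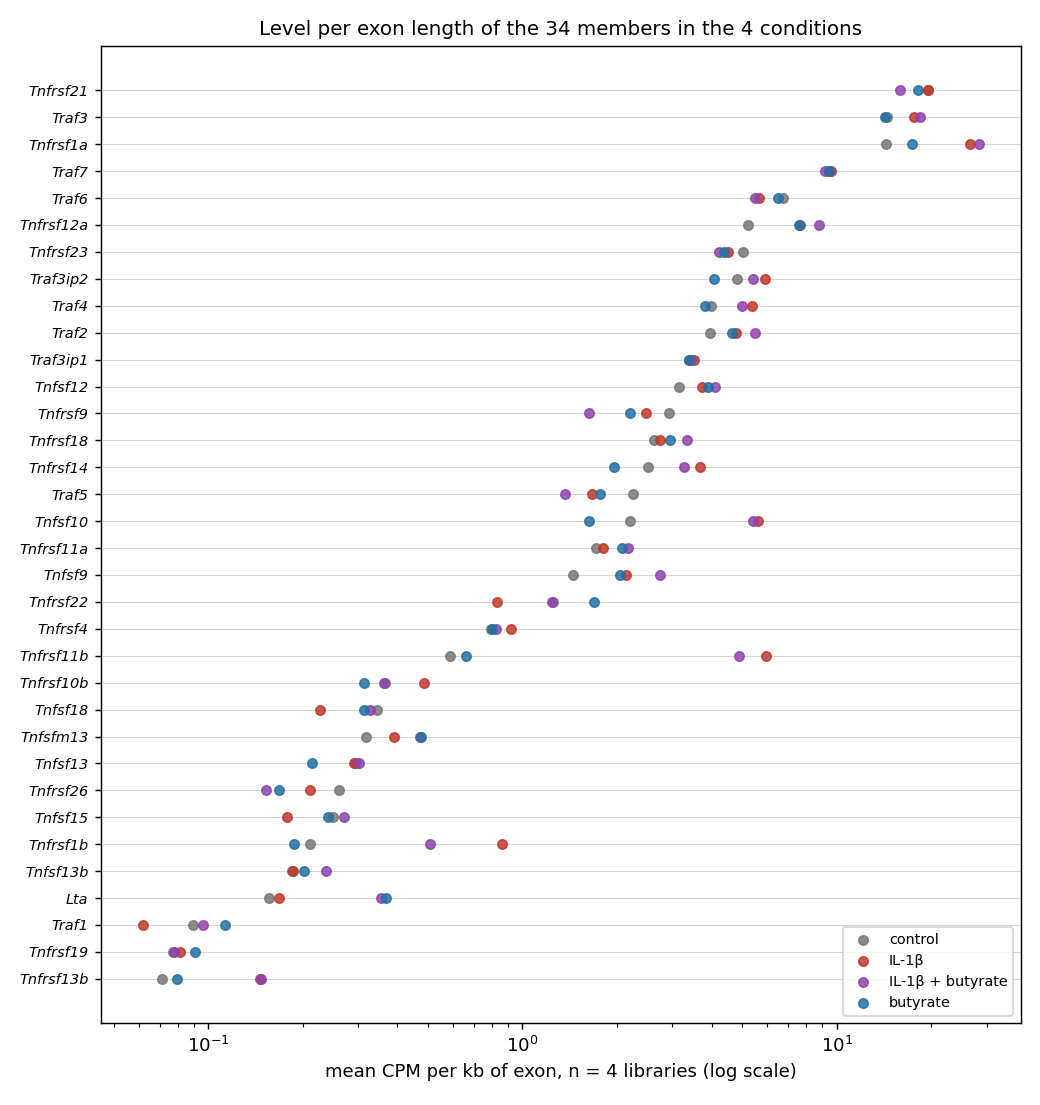
Mean CPM per kb of exon (log axis) of the 34 members, ordered by their level in control, with 1 point for each of the 4 conditions (n = 4 libraries each). The points of Tnfrsf11b, Tnfrsf1b and Tnfsf10 with IL-1β, alone or with butyrate, lie to the right of their control points, and the points of Traf7 and Traf3ip1 lie on each other.

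To see how IL-1β alone affected the family, IL-1β was compared with control. Of the 34 members, 13 were called (38.2%), against 17.8% of all genes tested. They were 10 raised members (11.2% of all genes were raised) and 3 lowered ones (6.59% of all genes). The median log2 fold change was 0.14 over the members and -0.03 over all genes. Raised were 5 receptors (Tnfrsf11b, Tnfrsf1b, Tnfrsf1a, Tnfrsf14, Tnfrsf12a), the ligand Tnfsf10, 3 adaptors (Traf4, Traf3, Traf2) and Traf3ip2. The lowered ones were the receptor Tnfrsf22 and the adaptors Traf5 and Traf6. The share of raised genes depended on scaling over all genes, with 1914 raised and 1800 lowered by upper-quartile normalization and 2798 and 708 by library size only against 2087 and 1224 here, while the members split into 9 and 3, and 11 and 3.

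**Figure D2:**
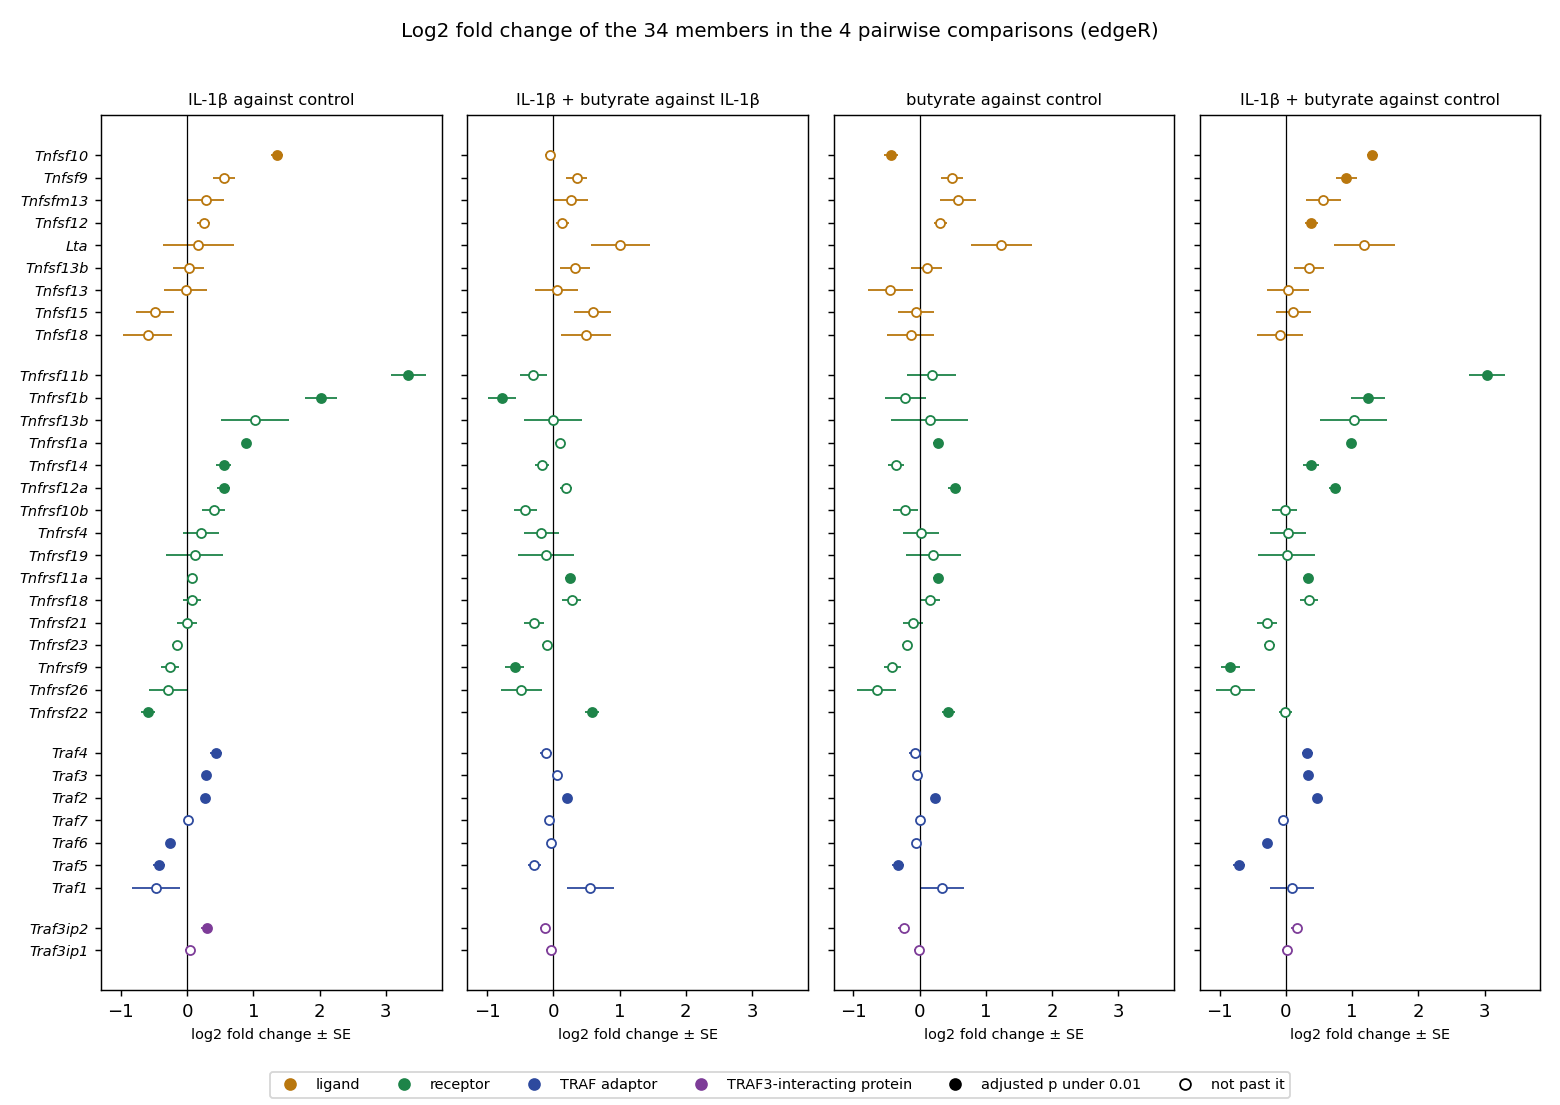
Log2 fold change with SE (x axis) of each of the 34 members, grouped by role, in the 4 pairwise comparisons of conditions (n = 4 libraries each). Filled points have an edgeR adjusted p under 0.01: 13 members with IL-1β against control, 5 with butyrate added to IL-1β, 7 with butyrate against control and 15 with both against control.

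The largest change of any member was that of Tnfrsf11b, which encodes osteoprotegerin, a secreted decoy receptor for the ligands RANKL (Tnfsf11) and TRAIL (Tnfsf10). The control libraries had 1.40, 1.58, 1.43 and 2.18 CPM and those with IL-1β 11.6, 15.4, 19.1 and 20.9 CPM. With IL-1β plus butyrate it had 8.81, 13.9, 14.98 and 17.2 CPM, and with butyrate alone 1.61, 1.82, 1.57 and 2.45 CPM. All 8 libraries with IL-1β lay above all 8 without it. The rise with IL-1β was 10.1-fold (log2 fold change 3.34 ± 0.27, adjusted p = 2.97e-07). Butyrate added to IL-1β gave a difference of -0.30 ± 0.20 (adjusted p = 0.288), and the libraries of both groups overlapped. Within each replicate number, however, the library with both was below that with IL-1β alone. In an edgeR model with a term for the replicate number the difference was -0.29 ± 0.07 and passed (adjusted p = 0.00184). The sum of the duct cell markers above was also higher in the 8 libraries with IL-1β. Not every marker moved with it. IL-1β raised 4 of 6 (11.2% of all genes), and both against control raised 3 of 6 (15.8%). Krt7, the most abundant one, was lowered on adding butyrate to IL-1β (11.1%). The part of duct cells in the rise of Tnfrsf11b was not tested.

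Tnfrsf1b encodes TNFR2, the TNF receptor without a death domain, mostly found on immune and endothelial cells. It had 0.793, 0.917, 0.573 and 0.942 CPM in control, 3.10, 3.90, 2.49 and 3.68 with IL-1β, 1.67, 1.32, 2.28 and 2.504 with both and 0.703, 0.400, 1.15 and 0.602 with butyrate. The IL-1β libraries lay above every control library and overlapped those with both in 1 library each. IL-1β raised it 4.06-fold (log2 fold change 2.02 ± 0.24, adjusted p = 2.4e-07). Added to IL-1β, butyrate changed it by -0.78 ± 0.21 on the log2 scale (adjusted p = 0.00616), and with both it was still above control (1.24 ± 0.26, adjusted p = 0.000287). The call for butyrate was lost without IL-1β replicate 2 or 4 and without replicate 1 or 2 of the combination, at adjusted p from 0.0201 to 0.0296. It was also lost by upper-quartile normalization (adjusted p = 0.0124) and by library size only (0.0108).

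The macrophage markers moved in the same sense as Tnfrsf1b. With IL-1β, 11 of 12 were raised (11.2% of all genes) and 1, C1qa, the most abundant one, was lowered. Adding butyrate to IL-1β lowered 6 of the 12 (11.1% of all genes). Against control, 9 of the 12 were still raised with both (15.8% of all genes), and C1qa was lowered. Adgre1, a marker of macrophages, had 1.79 ± 0.628 CPM in control, 9.74 ± 2.77 with IL-1β, 4.13 ± 1.56 with both and 0.982 ± 0.300 with butyrate. Csf1r, the receptor for the macrophage growth factor, had 3.19 ± 0.657, 14.5 ± 3.86, 10.4 ± 4.13 and 1.89 ± 0.494 CPM in the same order. Every marker of the list had counts in some library. Endothelial markers had 11.9 to 13.5 CPM in control, 11.3 to 16.6 with IL-1β, 18.5 to 23.4 with both and 16.5 to 17.8 with butyrate. The part of these cells in the change of Tnfrsf1b was not tested.

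Tnfrsf1a, the widely expressed death domain receptor TNFR1, was the receptor with the highest level per kb with IL-1β. Its CPM were 36.9, 41.1, 37.2 and 33.0 in control and 75.1, 75.1, 62.9 and 62.0 with IL-1β. They were 71.3, 75.2, 71.5 and 75.3 with both and 47.4, 47.1, 42.7 and 42.3 with butyrate. Every library with IL-1β was above every library without, and every butyrate library was above every control library. The rise with IL-1β was 1.85-fold (log2 fold change 0.89 ± 0.07, adjusted p = 1.53e-10) and that with butyrate 1.21-fold (0.28 ± 0.07, adjusted p = 0.0034). The latter was lost without control replicate 4 or butyrate replicate 1 or 2, at adjusted p from 0.0157 to 0.0196. Butyrate added to IL-1β gave 0.09 ± 0.07 (adjusted p = 0.299).

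Counts of Tnf itself, the ligand of both receptors, were too few for the member list. They were 1, 1, 2 and 4 in control, 6, 9, 9 and 22 with IL-1β, 2, 4, 8 and 6 with both and 1, 0, 0 and 0 with butyrate. The IL-1β libraries were all above the control libraries and overlapped those with both, and the sum over 4 libraries was 8, 46, 20 and 1. In the same edgeR model without a filter on low counts, over 42076 genes of which 5.61% were raised with IL-1β, the difference between IL-1β and control was 2.48 ± 0.56 on the log2 scale (adjusted p = 0.00011). Adding butyrate to IL-1β gave -1.23 ± 0.47 (adjusted p = 0.0548), which is not past the threshold.

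Its neighbour Ltb, which encodes lymphotoxin beta and lies with Tnf and Lta in one cluster on chromosome 17, had 1, 0, 0 and 0 counts in control and 3, 7, 5 and 12 with IL-1β. It had 5, 8, 4 and 5 counts with both and 0, 1, 2 and 0 with butyrate. The ratio of summed counts to control, per effective library size, was 27.9 with IL-1β (exact 95% interval 4.59 to 1140) and 21.5 with both (3.48 to 887), so its size is poorly known. Without the filter it was raised in both (adjusted p = 3.73e-05 and 0.000282), against 7.29% of all genes raised with both. Traf3ip3, a gene known from T cells, had 3, 2, 1 and 2 counts in control and 7, 8, 7 and 17 with IL-1β, a ratio of 5.03 (2.32 to 12.5, adjusted p = 0.00105 without the filter). With both it had 3, 4, 7 and 1 counts and with butyrate 1, 2, 0 and 3. These intervals cover counting error only.

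**Figure D3:**
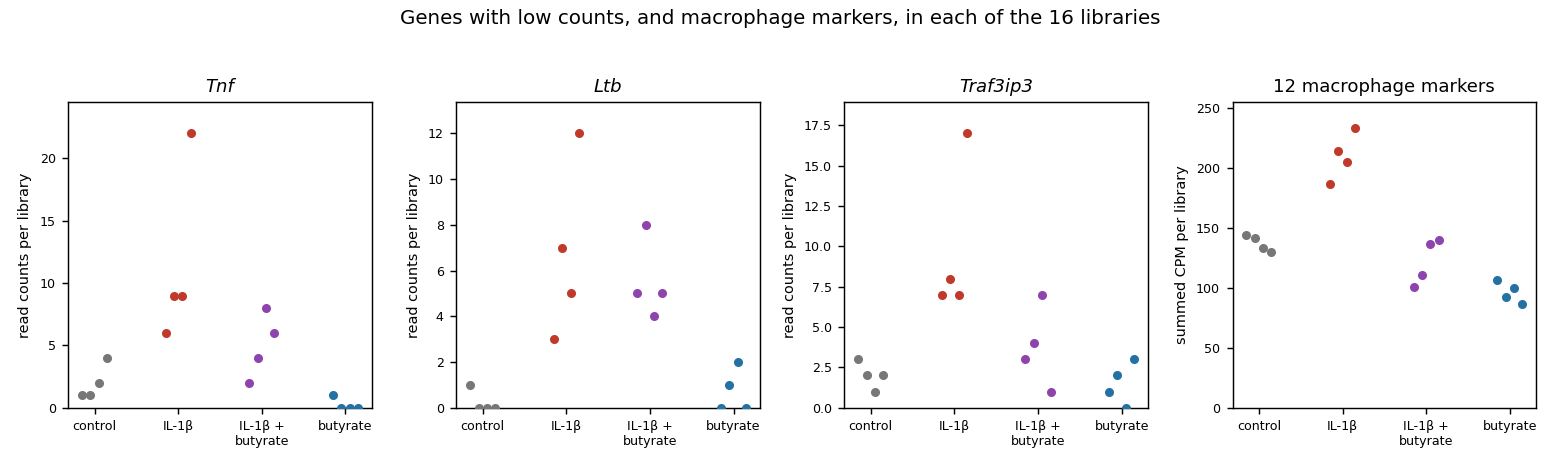
Read counts of Tnf, Ltb and Traf3ip3 in each of the 16 libraries and, at the right, the summed CPM of 12 macrophage markers (y axes), by condition (x axis), with 1 point for each library. Tnf had 1 to 4 counts in control and 6 to 22 with IL-1β, and the macrophage sum was 130 to 144 in control and 187 to 233 with IL-1β. The most abundant marker of the sum, C1qa, was lowered with IL-1β, whereas 11 were raised.

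The other symbols below the minimum were Tnfsf11 (at most 2 counts in any library), Tnfsf14 (3), Tnfsf4 (6), Tnfsf8 (11), Tnfrsf13c (6), Tnfrsf17 (4), Tnfrsf25 (12), Tnfrsf8 (7) and the antisense transcript Tnfsf13os (16). Several of them are genes of lymphocytes, of whose markers 3 of 7 for T cells and 1 of 4 for B cells had enough counts to be tested. Tnfsf11, the second ligand of osteoprotegerin and the ligand of Tnfrsf11a, was thus at or under 3 counts in every library.

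Among the ligands tested, Tnfsf10 was the one called with IL-1β. TRAIL, its product, binds death receptors and decoys. The control libraries had 13.4, 11.1, 11.7 and 10.2 CPM, those with IL-1β 31.1, 27.2, 31.4 and 28.7 CPM, those with both 29.9, 29.9, 28.3 and 26.1 CPM and those with butyrate 10.5, 8.48, 7.11 and 8.22 CPM. The libraries with IL-1β stood apart from those without it, and butyrate overlapped control in 1 library. IL-1β raised it 2.56-fold (log2 fold change 1.35 ± 0.09, adjusted p = 2.81e-12), and with both it stayed raised (1.31 ± 0.09, adjusted p = 3.29e-12). Butyrate alone lowered it (log2 fold change -0.43 ± 0.10, adjusted p = 0.00145), whereas butyrate added to IL-1β gave -0.05 ± 0.08 (adjusted p = 0.691). The difference between these butyrate effects was 0.38 ± 0.13 and did not pass the test (adjusted p = 0.337).

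The receptors of TRAIL did not move with their ligand in one way. Tnfrsf10b, the death receptor of TRAIL in the mouse, had 1.99 ± 0.368 CPM in control and 2.65 ± 0.496 with IL-1β, a difference that did not pass (0.40 ± 0.18, adjusted p = 0.0973). Tnfrsf22, a decoy receptor of TRAIL on mouse cells, had 5.46, 4.88, 5.54 and 5.26 CPM in control and 3.57, 3.36, 3.52 and 3.57 with IL-1β. It had 5.60, 5.60, 5.08 and 4.67 CPM with both and 7.38, 7.73, 6.48 and 6.92 with butyrate. The IL-1β libraries were below all others, the butyrate libraries above all others, and control and the combination overlapped. IL-1β lowered it (log2 fold change -0.59 ± 0.10, adjusted p = 8.35e-05), and butyrate raised it by 0.58 ± 0.10 in the presence of IL-1β (adjusted p = 0.000105) and by 0.43 ± 0.10 without (adjusted p = 0.000905). With both, the difference from control was -0.01 ± 0.10 (adjusted p = 0.986).

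Tnfrsf23, the other decoy of this kind, lies beside Tnfrsf22 and Tnfrsf26 on chromosome 7, and 27.4% of the 50-base stretches of Tnfrsf22 transcripts also occur in other genes, mainly Tnfrsf23, so reads of this pair could be split in counting. Tnfrsf23 had 19.9 ± 0.898 CPM in control, 17.9 ± 0.544 with IL-1β, 16.8 ± 1.92 with both and 17.4 ± 2.17 with butyrate, and was called in no comparison. Its difference between both and control was -0.25 ± 0.08 (adjusted p = 0.0137). It passed without replicate 2 of the combination or butyrate replicate 1 or 4, at adjusted p from 0.00416 to 0.00939. The counts of Tnfrsf26 gave 0.839 ± 0.134 CPM in control and 0.491 ± 0.0885 with both (-0.77 ± 0.30, adjusted p = 0.0387).

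**Figure D4:**
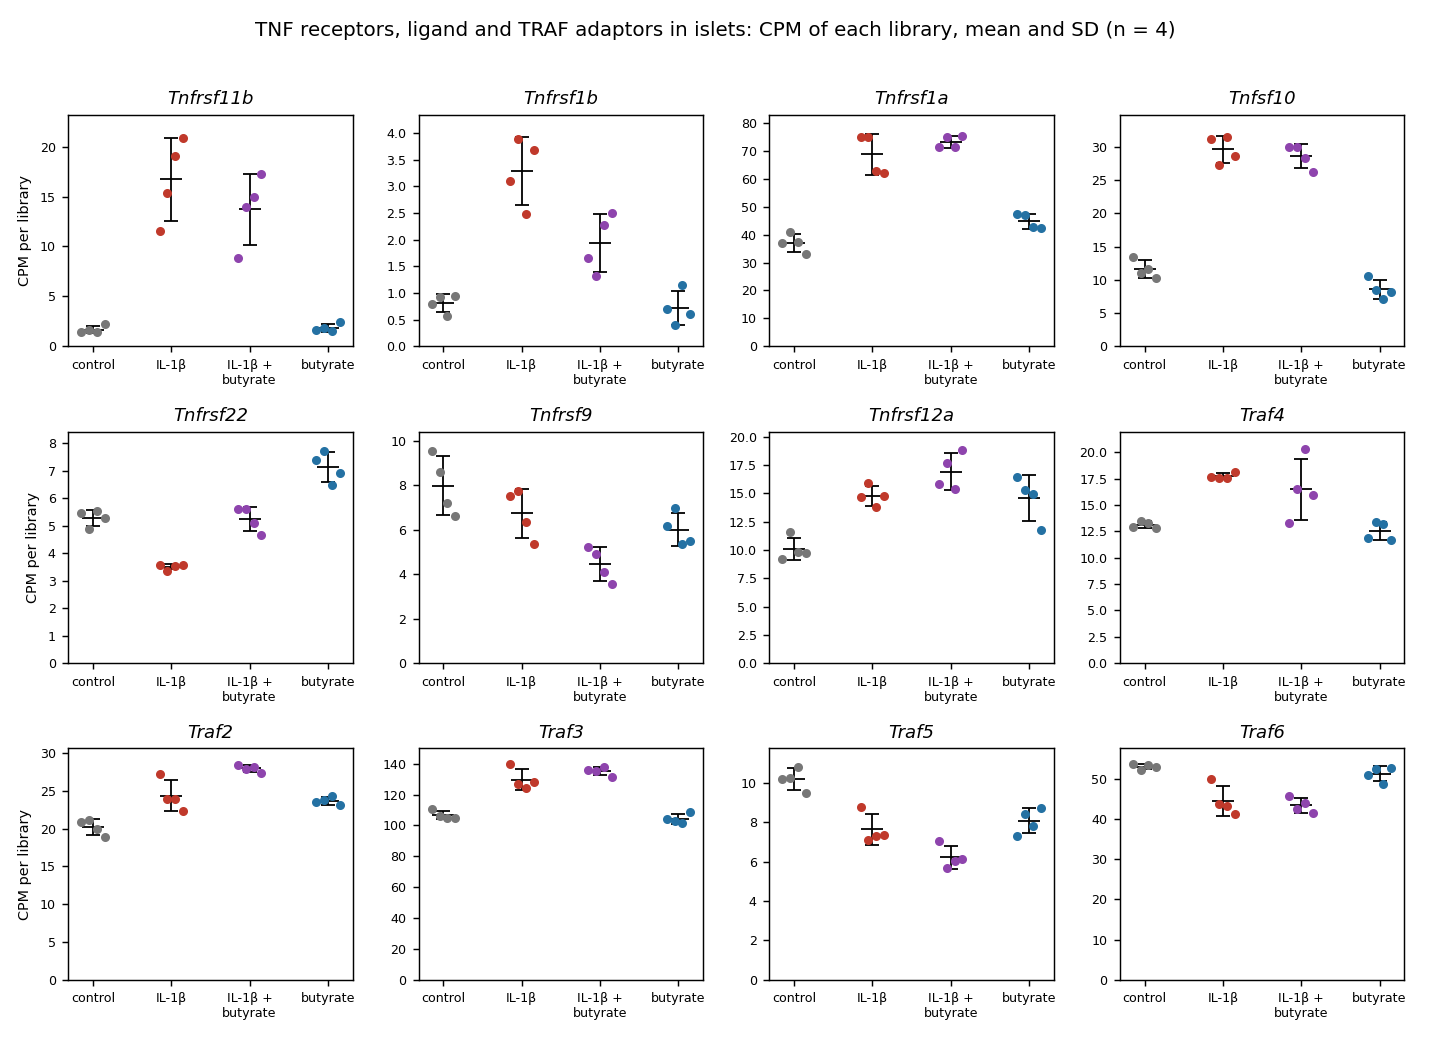
CPM (y axis, from 0) of 12 members in the 4 conditions, with 1 point for each library and the mean with its SD (n = 4). Tnfrsf11b was 1.40 to 2.18 CPM in control and 11.6 to 20.9 with IL-1β, and Tnfrsf22 was lowest with IL-1β (3.36 to 3.57) and highest with butyrate (6.48 to 7.73).

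Receptors with smaller changes included Tnfrsf12a, or Fn14, the receptor of TWEAK. It was raised by IL-1β (0.55 ± 0.09, adjusted p = 5.3e-05) and by butyrate (0.53 ± 0.10, adjusted p = 0.000101), from 10.1 ± 1.01 CPM to 14.8 ± 0.896 and 14.6 ± 2.01 CPM. With both it had 16.9 ± 1.61 CPM. Its ligand Tnfsf12 had 4.75 ± 0.215 CPM in control and 6.20 ± 0.251 with both, where it was raised (0.38 ± 0.10, adjusted p = 0.00246, 0.0112 without replicate 2 of the combination). Tnfsf12 shares 48.3% of its exon bases with the read-through gene Tnfsfm13, which also covers Tnfsf13, so the 3 values are uncertain.

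Tnfrsf14, or HVEM, which binds the ligand LIGHT (Tnfsf14), had 3.62 ± 0.166 CPM in control, 5.28 ± 0.443 with IL-1β, 4.70 ± 0.151 with both and 2.82 ± 0.444 with butyrate. The rise with IL-1β was 0.55 ± 0.12 (adjusted p = 0.000495). The rise with both (0.38 ± 0.12, adjusted p = 0.0092) was lost in 13 of the 16 fits with 1 library left out, at adjusted p from 0.0104 to 0.0336, and held without IL-1β replicate 1 or butyrate replicate 2 or 4. DESeq2 did not call it either (adjusted p = 0.0186).

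Tnfrsf9 encodes CD137, a costimulatory receptor that binds TRAF1 and TRAF2. It had 9.52, 8.59, 7.21 and 6.59 CPM in control, 7.50, 7.74, 6.32 and 5.34 with IL-1β, 5.24, 4.88, 4.07 and 3.56 with both and 6.18, 6.97, 5.33 and 5.51 with butyrate. The combination lay below every other group, and the other 3 groups overlapped. Butyrate added to IL-1β lowered it 1.49-fold (log2 fold change -0.58 ± 0.14, adjusted p = 0.00293), a call lost without IL-1β replicate 2 or replicate 4 of the combination (adjusted p from 0.0112 to 0.0139). Butyrate alone gave -0.41 ± 0.14 (adjusted p = 0.0237, and 0.00878 without control replicate 4). Its ligand Tnfsf9 had 1.87 ± 0.321 CPM in control and 2.77 ± 0.188 with IL-1β (0.56 ± 0.17, adjusted p = 0.0133, and 0.00796 without butyrate replicate 4). With both, Tnfsf9 had 3.52 ± 0.338 CPM and was raised (0.91 ± 0.16, adjusted p = 4.37e-05).

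Tnfrsf11a encodes RANK, a receptor best known from osteoclasts. It had 10.3 ± 0.184 CPM in control and 10.8 ± 0.748 with IL-1β, which overlapped. With butyrate it had 12.4 ± 0.490 CPM and with both 12.9 ± 0.729 CPM. Both butyrate groups lay above their counterparts without butyrate (0.27 ± 0.07, adjusted p = 0.00421, and 0.25 ± 0.07, adjusted p = 0.00787). The first call was lost without control replicate 1, 2 or 3 or butyrate replicate 1, 2 or 4 (adjusted p from 0.0114 to 0.0187). The second was lost in 11 of 16 fits with 1 library left out (0.0103 to 0.0472), and held without control replicate 1 and without any 1 butyrate library. Its rise with both against control held in all of them (0.33 ± 0.07, adjusted p = 0.000428).

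The other receptors were called in no comparison of 2 groups by the model used here, which has no term for the replicate number. They were Tnfrsf21, Tnfrsf18 (GITR), Tnfrsf4 (OX40), Tnfrsf13b (TACI), Tnfrsf19, Tnfrsf10b, Tnfrsf23 and Tnfrsf26. Tnfrsf21 was the member with the highest level in control. It had 99.3, 77.6, 71.4 and 71.4 CPM in control and 98.6, 79.45, 71.99 and 70.34 with IL-1β. The libraries with both had 81.5, 61.5, 58.9 and 59.3 CPM and those with butyrate 85.13, 78.97, 64.85 and 68.35. Replicate 1 was the highest in each of the 4 groups. With a term for the replicate number, edgeR called Tnfrsf21 lowered on adding butyrate to IL-1β (-0.29 ± 0.04, adjusted p = 5.34e-07). Tnfrsf18 had 4.004 ± 0.770 CPM in control and 5.10 ± 0.654 with both (0.35 ± 0.14, adjusted p = 0.0449), and 27.2% of its exon bases overlap an antisense gene. The ligands Tnfsf13, Tnfsf13b (BAFF), Tnfsf15, Tnfsf18, Tnfsfm13 and Lta were called in none either. Lta, lymphotoxin alpha, had 0.216 ± 0.181 CPM in control, 0.233 ± 0.0713 with IL-1β, 0.490 ± 0.0701 with both and 0.510 ± 0.236 with butyrate. Against control, butyrate gave 1.24 ± 0.46 (adjusted p = 0.0408) and both gave 1.18 ± 0.46 (adjusted p = 0.0371). Control replicate 1 was the highest of its group, and without it these values passed (adjusted p = 0.00545 and 0.00415).

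Of the 7 TRAF adaptors, 3 were raised and 2 lowered with IL-1β, beside 17.8% of all genes called. Traf2, which brings ubiquitin ligases to both TNF receptors, had 20.9, 21.1, 19.97 and 18.8 CPM in control and 27.2, 23.9, 23.8 and 22.3 with IL-1β. It had 28.4, 27.9, 28.2 and 27.4 CPM with both and 23.4, 23.8, 24.4 and 23.1 with butyrate. The control libraries were the lowest and those with both the highest, and IL-1β and butyrate overlapped. It was the only member called in the same direction with IL-1β (0.26 ± 0.06, adjusted p = 0.00124) and with butyrate added to it (0.20 ± 0.06, adjusted p = 0.0084), as were 2.3% of all genes. Butyrate alone also raised it (0.23 ± 0.06, adjusted p = 0.00472). The call for butyrate added to IL-1β held in 3 of the 16 fits with 1 library left out, those without control replicate 1 or 4 or IL-1β replicate 1, and was lost in the others (0.0104 to 0.0645). The call for butyrate alone was lost without control replicate 3 or 4 or butyrate replicate 1, 2 or 3 (0.0104 to 0.0282). With both against control the rise was 0.47 ± 0.06 (adjusted p = 2.68e-07) and was called in each fit.

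Traf3, which keeps the alternative NF-κB pathway off by directing the breakdown of the kinase NIK, had 111, 106, 105 and 105 CPM in control, 139.5, 127, 124 and 128 with IL-1β, 136, 135, 138 and 132 with both and 104, 103, 102 and 109 with butyrate. All libraries with IL-1β were above all without it. The rise was 0.28 ± 0.04 (adjusted p = 1.35e-05), and butyrate added to IL-1β gave 0.06 ± 0.04 (adjusted p = 0.315). Traf4 had 12.9, 13.5, 13.3 and 12.8 CPM in control, 17.7, 17.6, 17.6 and 18.1 with IL-1β, 13.2, 16.5, 20.3 and 15.9 with both and 11.8, 13.4, 13.2 and 11.7 with butyrate. Here the IL-1β libraries were close to each other and above control (0.43 ± 0.09, adjusted p = 0.000346), while those with both were spread and overlapped control (0.33 ± 0.09, adjusted p = 0.00355). That last call was lost without control replicate 4 or replicate 3 of the combination (0.012 and 0.04).

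Lowered were Traf5 and Traf6. Traf5, an adaptor of several costimulatory receptors, had 10.2, 10.3, 10.8 and 9.50 CPM in control, 8.79, 7.11, 7.31 and 7.36 with IL-1β, 7.07, 5.69, 6.04 and 6.16 with both and 7.33, 8.44, 7.84 and 8.73 with butyrate. Control was above all other libraries, and the combination was below IL-1β alone. IL-1β lowered it 1.34-fold (log2 fold change -0.42 ± 0.09, adjusted p = 0.000724), butyrate 1.26-fold (-0.33 ± 0.09, adjusted p = 0.00559) and both 1.63-fold (-0.71 ± 0.09, adjusted p = 4.4e-07). The butyrate call was lost without control replicate 1, 2 or 3 or butyrate replicate 1, 2 or 3 (0.0101 to 0.0252). Butyrate added to IL-1β gave -0.29 ± 0.10 (adjusted p = 0.0226, and 0.00667 without replicate 1 of the combination).

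Traf6, the adaptor of the IL-1 and Toll-like receptors, had 53.6, 52.2, 53.5 and 52.8 CPM in control, 49.9, 43.8, 43.2 and 41.2 with IL-1β, 45.7, 42.5, 43.9 and 41.5 with both and 51.0, 52.5, 48.7 and 52.7 with butyrate. Libraries with IL-1β were below those of control (-0.25 ± 0.05, adjusted p = 0.00046), with a difference of -0.03 ± 0.05 on adding butyrate (adjusted p = 0.67). Traf1, an adaptor without the ubiquitin ligase domain of the others, had few counts, 12, 30, 13 and 17 in control, 11, 5, 7 and 28 with IL-1β, 27, 13, 17 and 21 with both and 17, 23, 16 and 30 with butyrate. All 4 groups overlapped, and the change with IL-1β was -0.47 ± 0.36 (adjusted p = 0.373). Traf7 was called in no comparison, with 55.5 ± 2.43 CPM in control and 56.4 ± 3.75 with IL-1β.

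Traf3ip2 encodes Act1, the adaptor of the IL-17 receptor. It had 18.5, 18.6, 17.7 and 16.4 CPM in control, 24.6, 22.4, 18.0 and 22.2 with IL-1β, 22.2, 19.4, 19.4 and 18.8 with both and 16.1, 14.2, 14 and 15.9 with butyrate. The butyrate libraries were the lowest, and IL-1β replicate 3 overlapped control. It was raised with IL-1β (0.29 ± 0.08, adjusted p = 0.00554), which was lost without control replicate 3 or 4 or IL-1β replicate 1, 2 or 4 (0.0119 to 0.029). It was also lost by upper-quartile normalization (0.0103). Traf3ip1, a gene of cilia, had 12.6 ± 0.547 CPM in control and 13.1 ± 0.943 with IL-1β.

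Whether butyrate changed the family in the presence of IL-1β was asked by comparing the combination with IL-1β alone. In this comparison 5 members were called (14.7%), against 19.5% of all genes, with Tnfrsf22, Tnfrsf11a and Traf2 raised (8.41% of all genes) and Tnfrsf1b and Tnfrsf9 lowered (11.1%). For a list of 34 this share is near the background, and the count moved with the setting. A model with a term for the replicate number called 7 members, beside 2126 raised and 2857 lowered over all genes. Left-out libraries gave 1 to 5 calls, the lowest without IL-1β replicate 2. That fit gave 1365 raised and 1873 lowered of 19017 genes, against 1563 and 2066 of 18587 in the main fit. Upper-quartile normalization gave 3 raised and 1 lowered, beside 2137 raised and 1566 lowered over all genes tested. Tnfrsf1b and Tnfrsf22 were called with IL-1β and in the opposite direction on adding butyrate, 2 of 34 members against 3.99% of all genes. Among those called with IL-1β, they were 2 of 13 members, beside 741 of 3311 genes.

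Butyrate alone against control gave 7 called members (20.6%), against 19.9% of all genes, a share close to the background. Tnfrsf12a, Tnfrsf22, Tnfrsf1a, Tnfrsf11a and Traf2 were raised (8.53% of all genes), and Tnfsf10 and Traf5 were lowered (11.4%). With upper-quartile normalization 6 were raised and 1 lowered, and without the filter on low counts 3 were raised and 4 lowered. Over all genes, the first of these settings gave 2207 raised and 1566 lowered, and the second 1501 and 2427 of 42076. The count fell to 3 without butyrate replicate 1 and to 4 without butyrate replicate 2 or control replicate 3. Calls over all genes fell too, from 1585 raised and 2112 lowered in the main fit. In the same order, the 3 fits gave 1296 and 1939, 1250 and 1655, and 1294 and 1764.

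Both agents against control called 15 members (44.1%), against 30.6% of all genes. Of these, 12 were raised (15.8% of all genes), namely Tnfrsf11b, Tnfsf10, Tnfrsf1b, Tnfrsf1a, Tnfsf9, Tnfrsf12a, Traf2, Tnfrsf14, Tnfsf12, Traf3, Tnfrsf11a and Traf4. Lowered were Tnfrsf9, Traf5 and Traf6 (14.8%). The median was 0.24 on the log2 scale, with -0.003 over all genes. Whether the butyrate effect depended on IL-1β was tested as a difference of differences, and edgeR called 0 of the 34 members and 0.0968% of all genes. DESeq2 also called 0 members. At an unadjusted p under 0.05 there were 2, Tnfsf10 and Tnfrsf12a. Some of 34 members would fall under such a cut by chance alone, and the share of all genes under it was not counted.

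Other genes of the pathway were counted from lists. The list of family members with other symbols also held Edaradd, an adaptor and not a ligand or receptor. Of the 10 tested genes of that list, IL-1β raised 4 (11.2% of all genes) and lowered 2, Edaradd and Relt (6.59%). Cd40, a costimulatory receptor, went from 0.679 ± 0.299 CPM to 3.40 ± 0.437 (2.29 ± 0.24, adjusted p = 1.61e-08), and Fas, the death receptor, from 0.464 ± 0.196 to 2.06 ± 0.318 (2.14 ± 0.26, adjusted p = 2.03e-07). Eda2r, a receptor of ectodysplasin, went from 2.94 ± 0.232 CPM to 5.13 ± 0.605 (0.80 ± 0.14, adjusted p = 4.81e-05) and to 2.11 ± 0.311 with both, lowered by butyrate in the presence of IL-1β (-1.27 ± 0.14, adjusted p = 1.33e-07). Fas was at 1.92 ± 0.303 CPM with both (-0.11 ± 0.20, adjusted p = 0.73). Ltbr, the receptor of lymphotoxin, was the fourth raised gene (0.37 ± 0.07, adjusted p = 0.000357).

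Of 23 tested partners of the receptor complex and of death signalling, IL-1β raised 7 (11.2% of all genes) and lowered 1, Map3k5 (6.59%). Birc3, a ubiquitin ligase that binds TRAF2, rose from 9.59 ± 1.69 CPM to 54.7 ± 1.16 (2.52 ± 0.08, adjusted p = 2.73e-18) and to 71.2 ± 5.98 with both, where butyrate raised it further (0.38 ± 0.07, adjusted p = 8.21e-05). Rhbdf2, which brings the TNF-cutting enzyme Adam17 to the cell surface, rose from 4.83 ± 0.482 CPM to 13.4 ± 1.07 and, with both, to 19.6 ± 1.39. Its changes were 1.48 ± 0.09 (adjusted p = 5.48e-13) and, for butyrate in the presence of IL-1β, 0.55 ± 0.08 (adjusted p = 3.69e-06). Mlkl, which carries out necroptosis, rose by 1.42 ± 0.16 (adjusted p = 5.02e-08) from 1.67 ± 0.0804 CPM.

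Among 18 NF-κB subunits, kinases and inhibitors, 11 were raised with IL-1β (11.2% of all genes) and the other 7 did not pass. Nfkb2, a subunit of the alternative pathway, went from 11.4 ± 0.850 CPM to 70.0 ± 10.98 (2.62 ± 0.10, adjusted p = 9.96e-14). Bcl3, a nuclear co-factor of NF-κB, changed by 2.01 ± 0.09 (adjusted p = 2.05e-15) and Nfkbiz, a relative of it, by 1.95 ± 0.06 (adjusted p = 6.15e-19). Butyrate added to IL-1β raised 2 of the 18, Ikbke and Tnip1 (8.41% of all genes), and lowered 4, Relb, Nfkb2, Tnip2 and Nfkbib (11.1%). Nfkb2 fell to 48.4 ± 3.08 CPM (-0.53 ± 0.09, adjusted p = 9.31e-05), still above control.

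Finally, 5 of 7 tested genes named as TNF alpha induced proteins were raised with IL-1β (11.2% of all genes), and the other 2 did not pass. Tnfaip3, the deubiquitinase A20 that limits NF-κB, went from 5.49 ± 0.513 CPM to 20.2 ± 1.68 (1.88 ± 0.10, adjusted p = 1.53e-14). Tnfaip2 rose from 0.520 ± 0.133 to 2.36 ± 0.684 CPM (adjusted p = 6.95e-08), and Tnfaip8l2, an immune cell gene at 0.111 ± 0.0593 CPM in control, changed by 2.90 ± 0.43 on the log2 scale (adjusted p = 5.86e-06). With butyrate added to IL-1β, 2 of the 7 were raised (8.41% of all genes), Tnfaip8 (0.78 ± 0.15, adjusted p = 0.000668) and Tnfaip1 (0.18 ± 0.04, adjusted p = 0.00329).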

How the data were processed

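The deposited values are counts, the whole numbers of reads that the authors counted on each gene, 1 column per library, without normalization. The authors mapped single-end reads to GRCm38 (mm10), with STAR 2.5.3a per the submitters' processing notes. The counting tool, its strand setting and the annotation release are not given in the sources used here. Symbols, exon lengths and positions came from GENCODE M21, which held 52489 of 52636 identifiers. Members and gene lists were chosen with earlier results of these data known.

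Low genes were dropped with filterByExpr of edgeR 4.0.16 (R 4.3.3), and after TMM scaling the package fitted 1 robust quasi-likelihood model of the 4 groups to all 16 libraries. The cut for a call, an adjusted p (Benjamini-Hochberg) under 0.01, is that of the paper, which used DESeq2. CPM values use the TMM library sizes. A level per kb is CPM over the length of merged exons. Libraries of one group differed by more than counting error (chi-square per gene 1.72 to 13.5), and p-values measure the spread between these pools. Reads had no molecular identifiers.

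Values by library are given for members of each role with the largest called changes, and for Tnf, Tnfrsf1a, Tnfrsf1b, Traf1, Traf2, Traf3 and Traf6. Of the listed pathway genes, those called with IL-1β with the 3 largest changes are named, and others were chosen after their values were seen. Alternatives were DESeq2 1.42.0, RLE, upper-quartile and no scaling, no filter, a replicate block, a threshold of 0.05 and each library left out. Marker sums of alpha, delta, fibroblast, acinar and T cells are given in the closing section.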

Additional observations from a re-analysis of the deposited data

Results flagged for a closer look

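In 5 of 136 groups of 4 libraries, 1 library of a member stood apart from the other 3, by a gap over Dixon's 95% critical value. Chance flags about 1 in 20 such groups. With IL-1β, Traf5 had 8.79 CPM in replicate 1 against 7.11 to 7.36 in the others. With IL-1β plus butyrate, replicate 1 was high for Traf3ip2 (22.2 CPM against 18.8 to 19.4) and Tnfrsf21 (81.5 against 58.9 to 61.5). For Tnfrsf21, replicate 1 was the highest in the other groups as well. Replicate 2 of the combination was high for Tnfsf9 (4.03 against 3.33 to 3.37) and low for Traf7 (50.0 against 54.8 to 55.3).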

How the results depend on the processing

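Each member and comparison was set against 23 alternatives, including the main fit at a threshold of 0.05. That alternative is not a refit and can add calls but not lose them. Of 40 calls, 28 held in all and 12 were lost in some, 15 that were not called passed in some, and none of these 55 changed direction. Tnfrsf18 and Tnfrsf26, with both against control, passed only at the threshold of 0.05. With butyrate added to IL-1β, 5 called members became 3 with library size only and 3 without the filter, and 1 to 5 with a library left out (fewer than 4 without control replicate 2 or 3, IL-1β replicate 2, 3 or 4, or any library of the combination). Over all genes, library size only gave 1580 raised and 1946 lowered in this comparison, and no filter gave 1586 and 2328 of 42076. For butyrate against control, 7 became 13 at a threshold of 0.05 and 3 to 7 with a library left out. IL-1β against control gave 12 to 14 in every setting, and both against control 13 to 16 with a library left out and 19 at a threshold of 0.05. The share of all genes past 0.05 was not counted, so the counts at that threshold have no background beside them. With a library left out, IL-1β against control gave 1819 to 2217 raised and 896 to 1194 lowered over all genes. Butyrate added to IL-1β gave 1182 to 1573 and 1873 to 2282. Butyrate against control gave 1250 to 1660 and 1655 to 2255, and both against control 2590 to 3015 and 2385 to 2956. The cause of the changes between settings was not tested.

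The sample labels do not say whether a replicate number marks a shared experiment. Deviations were positively correlated in all 24 pairs of the same number (0.0535 to 0.397), and 14 of 16 libraries correlated best with their own number. Only 17 pairs were over the 0.1 that the rule used for pairing asked for, so the main model has no term for the number. Deviations shared by a number therefore stay in its spread. With a replicate block 14, 7, 9 and 17 members were called in the 4 pairwise comparisons, against 13, 5, 7 and 15, and 0 for the difference of the butyrate effects. Calls over all 18587 genes rose too. In the same order, the block raised and lowered 2586 and 1951, 2126 and 2857, 2105 and 2774, and 3501 and 3398 genes. The main model gave 2087 and 1224, 1563 and 2066, 1585 and 2112, and 2937 and 2751. Added were Tnfsf9 with IL-1β, Tnfrsf11b and Tnfrsf21 on adding butyrate, Tnfrsf9 and Traf3ip2 with butyrate, and Tnfrsf21 and Tnfrsf23 with both. The adjusted p of Tnfrsf21 was then 5.34e-07 on adding butyrate and 3.14e-07 with both against control, and that of Tnfrsf11b on adding butyrate 0.00184, against 0.288 without the block. Depth limits Tnf, Ltb, Lta and Traf1, which had at most 30 counts in a library.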

Other observations

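Marker lists of cell types that were not set beside a member above gave these summed levels. Alpha cell markers had 21000 to 24200 CPM in control, 20200 to 25700 with IL-1β, 24800 to 27800 with both and 18600 to 22000 with butyrate. For delta cells the sums were 1690 to 1990, 1740 to 2220, 2620 to 3180 and 2390 to 2770 CPM in the same order. The 8 fibroblast and stellate cell markers had 8.12 to 14.2, 4.55 to 13.2, 6.05 to 20.8 and 12.1 to 14.6 CPM, and the 6 acinar markers 18.7 to 30.1, 18.9 to 27.1, 8.72 to 16.2 and 13.6 to 19.7 CPM. T cell markers summed to 3.08 to 4.84, 2.74 to 4.43, 5.82 to 6.58 and 4.77 to 5.20 CPM. A sum does not stand for each marker of its list. Of 4 acinar markers tested, IL-1β raised 1, Ctrb1 (11.2% of all genes). With both against control, the most abundant one, Cela1, was lowered (14.8%), while the median log2 fold change of the 4 was 1.366. In that comparison 1 of 3 delta cell markers (Sst) and 1 of 3 T cell markers tested (Lck) were raised (15.8%), and 3 of 4 alpha cell markers were lowered.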
